A study of Mus musculus with 6 samples.

Results

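The aminoacyl-tRNA synthetase genes and their scaffold proteins were taken from the table by gene symbol: any capital letter followed by ars and then nothing, 1, 2 or 3, together with Eprs, Eprs1, Farsa, Farsb, Aimp1, Aimp2 and Eef1e1. The rule took 40 genes of the 26469 in the table, and all 40 were abundant enough to be tested. They comprised 18 cytosolic synthetases, 17 mitochondrial synthetases with names ending in 2 (Pars2 among them), Gars and Kars, whose products serve both compartments, and the 3 scaffold genes. RNA was measured in mouse splenic naive CD4+ T cells cultured for 36 h with TGF-β at 5 ng/ml, activating hamster antibodies against CD3 and CD28, and antibodies against IL-4 and IFNγ, conditions that drive them towards regulatory T cells (Tregs). The 3 mutant samples came from mice described as Sf3b1K700E/fl/Cd4Cre and annotated as Sf3b1 mutation, in which Cre made in T cells switches on the K700E form of this splicing factor, a change that gene counts cannot show. The 3 control samples came from Sf3b1K700E/fl mice without Cre and are annotated as WT, so both groups carry the conditional allele. The groups differ in Cre as well as in the K700E form, and these cannot be told apart here. No label gives the age of the mice or ties samples to separate animals, so the p-values reflect the spread among these 6 samples alone, and that spread may be technical.

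Counts per library added up to between 34524433 and 36867313 in the mutant and between 33633196 and 43928723 in the control group. The CD4 T cell markers were present, with a summed level of 2024 to 3084 CPM (counts scaled to the effective library size) in mutant and 1711 to 2435 CPM in control libraries over 8 of 8 genes. Markers of other cells were low. The 5 B cell genes summed to 3.67 to 40.2 CPM in mutant and 1.92 to 4.91 CPM in control libraries, with the highest value in mutant 2, and the 2 CD8 genes to 6.56 to 17.3 CPM in mutant and 5.81 to 40.4 CPM in control libraries, with the highest value in control 1. Myeloid, NK and erythroid genes summed to at most 5.34 CPM in any library. Mutant 1 stood apart from the other libraries in markers of activation and of naive cells. Its 10 activation markers summed to 4272 CPM, against 5322 and 6062 CPM in the other mutant and 6165 to 6762 CPM in control libraries. Its 8 markers of naive T cells summed to 2562 CPM, against 1164 and 1505 CPM in the other mutant and 1347 to 1470 CPM in control libraries. Not every gene followed these sums. Icos was highest in mutant 1, and Il2ra, Myc, Lef1 and Satb1 lay there within the range of the other libraries. The remaining activation genes were lowest and the remaining naive genes highest in mutant 1. The 4 Treg markers, Il2ra among them, summed to 2534, 3697 and 2170 CPM in mutant 1, 2 and 3, against 2934 to 3372 CPM in control libraries. Mutant 2 was thus highest and mutant 3 lowest. Foxp3 alone was at 230, 118 and 52.3 CPM in mutant, against 119, 139 and 108 CPM in control libraries.

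Aminoacyl-tRNA synthetases join each amino acid to its matching tRNA, the step that fixes the genetic code, and supply the ribosome with charged tRNA. Mammalian cells keep separate nuclear-encoded sets for the cytosol and for the mitochondrion, which translates the oxidative phosphorylation subunits encoded in its own genome. Several cytosolic enzymes sit in a large multi-synthetase complex held together by the scaffolds Aimp1, Aimp2 and Eef1e1. The others lie outside this complex and are called free here. T cells that leave the resting state raise protein synthesis strongly. Many cytosolic synthetase genes are also known targets of ATF4, the transcription factor induced when uncharged tRNA activates the kinase GCN2, encoded by Eif2ak4.

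ATF4 binds DNA with C/EBP partners at a composite element, so the promoter windows of the members were searched for its core, spelled TGATGNAA, on both strands. Windows from 250 bases before to 50 after the gene start were taken from RefSeq (GRCm38.p6) and matched by symbol for 30 of the 40 members, using the first start listed for each gene. Members without a matched window included Cars, Hars, Hars2, Lars, Nars, Pars2, Rars, Vars and Wars. The core was found in 4 of 11 cytosolic windows (36.4%), in 1 of the 2 dual windows (Gars), in 0 of 14 mitochondrial windows and in 0 of 3 scaffold windows, against 4.06% of 27025 genes with a window. The matches, in Aars, Gars, Iars, Tars and Yars, are shown here as the sequences behind these counts. All 4 cytosolic genes with a match had lower means in mutant cells, as did 6 of the 7 cytosolic genes whose window holds none. Each match is written 5' to 3' on the strand of the motif with 8 bases on either side, and the capitals mark the core.
Aars, chr8:111033722-111033745, - strand: ggctcggcTGATGCAAtgctcaag
Aars, chr8:111033843-111033866, - strand: gagcgctcTGATGAAAagtgaccc
Gars, chr6:55037963-55037986, - strand: ccggtgcaTGATGAAAtagcgcag
Iars, chr13:49682129-49682152, - strand: tctggaggTGATGCAAtactgaca
Tars, chr15:11399658-11399681, + strand: taaccagcTGATGCAAcgggactc
Yars, chr4:129189898-129189921, + strand: agctcagcTGATGCAAcccgacgg
In Tars and Yars the core began 15 bases before and 4 bases after the annotated start, and in Gars it lay 30 bases before the start. The complete windows of Yars, the member with the smallest p-value, and of its mitochondrial counterpart Yars2 follow on the GRCm38.p6 build, with any match to the core in capitals.
Yars, chr4:129189653-129189952, + strand: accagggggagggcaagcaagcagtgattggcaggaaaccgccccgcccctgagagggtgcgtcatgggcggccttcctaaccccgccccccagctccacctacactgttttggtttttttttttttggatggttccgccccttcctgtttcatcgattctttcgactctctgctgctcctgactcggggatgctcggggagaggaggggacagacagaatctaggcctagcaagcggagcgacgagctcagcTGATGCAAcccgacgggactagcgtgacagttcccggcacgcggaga
Yars2, chr16:16302715-16303014, + strand: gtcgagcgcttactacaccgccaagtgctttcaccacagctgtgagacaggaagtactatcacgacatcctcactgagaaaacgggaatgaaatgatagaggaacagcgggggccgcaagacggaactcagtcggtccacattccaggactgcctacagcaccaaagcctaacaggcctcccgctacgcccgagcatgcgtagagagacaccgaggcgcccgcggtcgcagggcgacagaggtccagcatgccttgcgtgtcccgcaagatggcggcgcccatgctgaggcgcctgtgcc
The window of Yars2 holds no match. A CACGTG E-box, the core recognised by MYC, was found in 4 of 11 cytosolic and 1 of 14 mitochondrial windows (36.4% and 7.14%), against 7.24% of all genes. The motif of NRF1, a regulator of nuclear genes for mitochondrial proteins, searched as GCGCA, any base and GCGC on both strands, was found in 2 of 11 cytosolic and 2 of 14 mitochondrial windows (18.2% and 14.3%), against 4.78% of all genes. A letter match is a description of the sequence and shows no binding.

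Most cytosolic synthetase genes had lower means in mutant than in control cells, and the mitochondrial genes lay closer to the middle of all genes. Of the 18 cytosolic genes, 17 had a lower mean in mutant cells, and in 12 the highest mutant library was below the lowest control library. Of the 17 mitochondrial genes, 12 had a lower mean and in 6 the groups did not overlap, again with mutant below control. Across all 18323 genes tested, 47.1% had a lower mean, 7.48% lay without overlap below the controls and 6.6% without overlap above them. No member lay without overlap above the controls. The median log2 fold change, mutant minus control, was -0.48 for the cytosolic class, -0.08 for the mitochondrial class and 0.02 for all genes tested, so the cytosolic median was lower than the mitochondrial one by a log2 difference of -0.40. Members share libraries and are not independent, and no test was made over them.

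By edgeR's quasi-likelihood test with Benjamini-Hochberg adjustment over all genes, 0 of 40 members passed an adjusted p of 0.05, as did 0 of 18323 genes (0% called). Their adjusted p ran from 0.598 for Yars to 0.981 for Lars2. An unadjusted p under 0.05 was reached by 10 members, all lower in mutant cells (8 cytosolic, Gars and the mitochondrial Rars2), against 3.48% of all genes with such a p and a lower mean, 4.14% with a higher mean and 7.62% in all. DESeq2 called 1 member, Yars. Of the genes to which it gave an adjusted p, it called 0.64%, and 0.307% with a lower mean. Limma-voom called 0 members and 0% of all genes. Leaving out single libraries moved these values. Without mutant 1 the cytosolic median was -0.28, the mitochondrial median -0.12 and their difference -0.16, with 12 of 18 and 6 of 17 genes below the controls without overlap, against 11.9% of all genes. The mitochondrial median was -0.17 without mutant 3, -0.13 without control 1 and -0.03 without control 2. Members below the controls without overlap numbered 19 with all libraries, 27 without mutant 3 (where 16.1% of all genes lay below without overlap) and 18 without control 3 (8.13%). The members with an unadjusted p under 0.05 numbered 16 without mutant 3 and 6 without control 3, where the share of all genes was 5.21% and 1.15%.

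**Figure D1:**
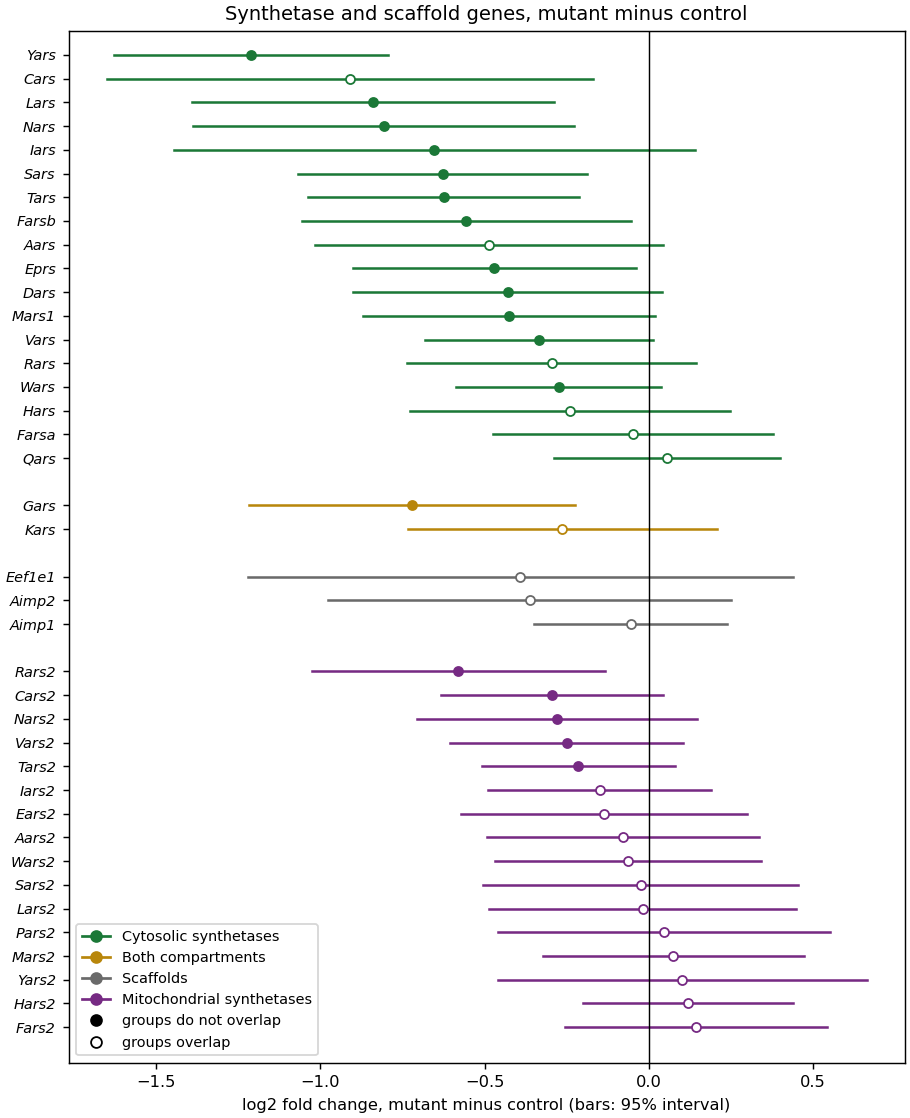
Log2 fold change of all but 1 of the 40 genes, mutant minus control, on the horizontal axis, grouped by class on the vertical axis. Points are edgeR estimates with 95% intervals, filled where the 3 mutant and 3 control libraries do not overlap (12 cytosolic, 1 dual and 5 mitochondrial genes), and the cytosolic points run from -1.21 for Yars to 0.05 for Qars.

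Among the free cytosolic enzymes, Yars (ENSMUSG00000028811), which charges tRNA with tyrosine, showed the most negative estimate of all 40 members. It was at 52.8, 71.3 and 74.5 CPM in mutant 1, 2 and 3, against 171, 131 and 158 CPM in control 1, 2 and 3. The highest mutant value was well below the lowest control value. The means were 66.2 ± 11.7 CPM in mutant and 153 ± 20.1 CPM in control cells (SD, n = 3 each), with a log2 fold change of -1.21 ± 0.18 (SE) and a 95% interval of -1.63 to -0.79. Yars had an unadjusted edgeR p of 0.000166 and an adjusted edgeR p of 0.598, and a DESeq2 adjusted p of 9.74e-05. Its log2 fold change stayed between -1.31 and -1.06 when single libraries were left out, and it was -1.06 without mutant 1.

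Nars (ENSMUSG00000024587), the asparagine enzyme, was at 136, 253 and 235 CPM in the mutant libraries, against 402, 296 and 392 CPM in the control libraries. Its groups did not overlap, although mutant 2 and control 2 were close, and the log2 fold change was -0.81 ± 0.25 (SE). Sars (ENSMUSG00000068739), the serine enzyme, which also feeds selenocysteine synthesis, was at 111, 159 and 129 CPM in mutant, against 234, 167 and 216 CPM in control libraries. Mutant 2 and control 2 lay next to each other here too, and the log2 fold change was -0.63 ± 0.19 (SE). Tars (ENSMUSG00000022241), the threonine enzyme, was at 93.7, 142 and 136 CPM in mutant, against 195, 182 and 196 CPM in control libraries. The Tars controls were tightly grouped above all mutant values, with a log2 fold change of -0.62 ± 0.18 (SE).

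Of the other free enzymes, the cysteine enzyme gene Cars and the alanine enzyme gene Aars overlapped between the groups, with control 2 below mutant 2. Cars was at 39.5, 94.5 and 67.7 CPM in mutant, against 146, 92.2 and 140 CPM in control libraries (log2 fold change -0.91 ± 0.32, SE). Aars averaged 205 ± 56.6 CPM in mutant and 287 ± 42.5 CPM in control cells (SD, n = 3 each). Phenylalanyl-tRNA synthetase is built from an α subunit, encoded by Farsa, and a β subunit, encoded by Farsb, and the estimates for these subunits differed. Farsb was at 59.7, 97.7 and 107 CPM in mutant, against 125, 133 and 131 CPM in control libraries, without overlap (log2 fold change -0.56 ± 0.22, SE). Farsa was at 56.2, 68.3 and 83.1 CPM in mutant, against 66.0, 83.2 and 65.5 CPM in control libraries, with the groups interleaved and a log2 fold change of -0.05 ± 0.18 (SE). The difference between the subunits was not tested. The valine enzyme gene Vars and the tryptophan enzyme gene Wars did not overlap between groups at log2 fold changes of -0.34 and -0.27, and the histidine enzyme gene Hars overlapped at -0.24.

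**Figure D2:**
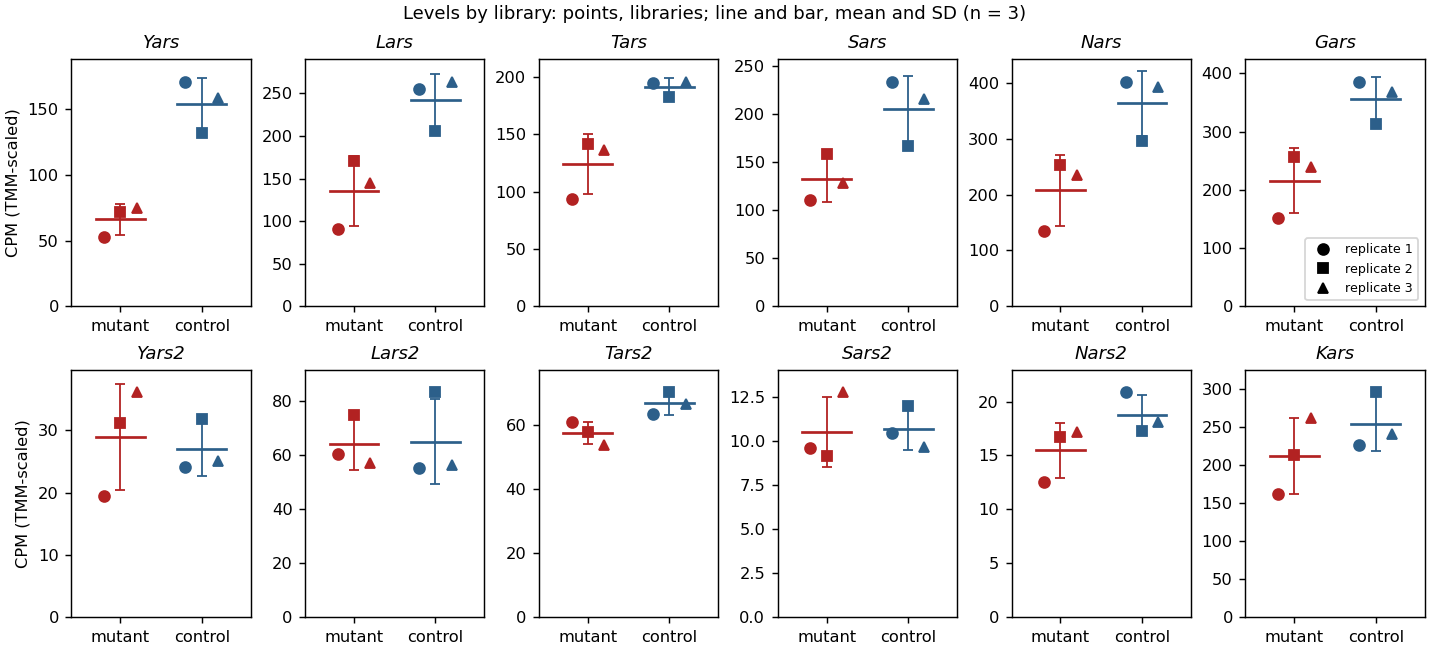
Level in CPM (vertical axes, each starting at 0) in the mutant and control libraries of the 6 members with the smallest p (top row) and of their mitochondrial counterparts, with Kars below Gars (bottom row). Points are libraries, lines means and bars SD (n = 3); in the top row all mutant points lie below all control points, while in the bottom row they do so for Tars2 and Nars2.

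In the multi-synthetase complex, Lars (ENSMUSG00000024493), the leucine enzyme, which is also known to take part in sensing leucine for mTORC1, had the most negative estimate. It was at 90.3, 170 and 145 CPM in mutant, against 255, 206 and 264 CPM in control libraries, without overlap, and its log2 fold change was -0.84 ± 0.24 (SE). Iars, the isoleucine enzyme, was at 104, 276 and 277 CPM in mutant and 354, 309 and 370 CPM in control libraries. The Iars value of mutant 1 was far below those of the other mutant libraries, and the interval of its log2 fold change of -0.65 ran from -1.45 to 0.14. Eprs, a fused enzyme for glutamate and proline, averaged 378 ± 85.9 CPM in mutant and 524 ± 25.2 CPM in control cells (SD, n = 3 each), and Mars1, the methionine enzyme, 124 ± 30.2 CPM in mutant and 167 ± 6.58 CPM in control cells, both without overlap. Dars, the aspartate enzyme, did not overlap either at a log2 fold change of -0.43, whereas the arginine enzyme gene Rars overlapped at -0.30. Qars, the glutamine enzyme, was at 141, 142 and 130 CPM in mutant, against 119, 155 and 123 CPM in control libraries. It was the only cytosolic gene with a higher mean in mutant cells, and its log2 fold change of 0.05 ± 0.15 (SE) was within the spread of the replicates and was -0.02 without control 1.

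The median log2 fold change was -0.43 over the 7 cytosolic enzymes of the complex and -0.56 over the 11 free ones. Of these, 5 and 7 lay below the controls without overlap, against 7.48% of all genes. The difference between these subsets was not tested. The scaffolds overlapped between the groups. Aimp1 was at 56.6, 56.2 and 63.3 CPM in mutant, against 62.0, 63.2 and 57.8 CPM in control libraries, with a log2 fold change of -0.06 and a 95% interval from -0.35 to 0.24. Aimp2 was at 16.2, 26.1 and 32.8 CPM in mutant, against 27.7, 38.7 and 30.3 CPM in control libraries. Eef1e1 was at 31.0, 68.8 and 98.1 CPM in mutant, against 88.8, 92.6 and 78.0 CPM in control libraries, so that the mutant libraries held both its lowest and its highest value. Its log2 fold change of -0.39 was -0.04 without mutant 1.

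The genes that serve both compartments were at different distances from their controls. Gars (ENSMUSG00000029777), the glycine enzyme, was at 151, 256 and 239 CPM in mutant, against 386, 313 and 368 CPM in control libraries, without overlap (log2 fold change -0.72 ± 0.21, SE). Kars, the lysine enzyme, which is part of the complex, was at 161, 213 and 261 CPM in mutant, against 226, 295 and 241 CPM in control libraries. Its groups overlapped, and its log2 fold change of -0.26 ± 0.20 (SE) was -0.09 without mutant 1.

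In the mitochondrial class, Rars2 (ENSMUSG00000028292), the arginine enzyme, had the smallest p. It was at 15.4, 21.9 and 23.6 CPM in mutant, against 27.2, 32.0 and 31.8 CPM in control libraries, without overlap. Its log2 fold change was -0.58 ± 0.19 (SE), with an unadjusted edgeR p of 0.0172 and an adjusted p of 0.644. Tars2 was at 60.7, 57.8 and 53.8 CPM in mutant, against 63.2, 70.2 and 66.6 CPM in control libraries, and Nars2 at 12.5, 16.7 and 17.2 CPM in mutant, against 20.9, 17.3 and 18.1 CPM in control libraries. These last 2 genes and Cars2 and Vars2 were separated between the groups by smaller log2 fold changes, from -0.29 for Cars2 to -0.21 for Tars2.

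The other mitochondrial genes reported here overlapped between the groups, with log2 fold changes from -0.15 for Iars2 to 0.14 for Fars2. Yars2 was at 19.5, 31.1 and 36.2 CPM in mutant, against 24.0, 31.8 and 25.0 CPM in control libraries, with mutant values on both sides of the controls. Its log2 fold change was 0.10 ± 0.24 (SE), and it was -0.09 without mutant 3. Lars2 was at 60.3, 74.9 and 57.2 CPM in mutant, against 55.4, 83.3 and 56.2 CPM in control libraries, with replicate 2 the highest library of each group. Sars2 was at 9.58, 9.15 and 12.8 CPM in mutant, against 10.4, 12.0 and 9.64 CPM in control libraries, without separation. The log2 fold changes of Lars2 and Sars2, -0.02 for both, changed sign under upper quartile scaling, to 0.03 and 0.01. Fars2, with the highest estimate of the class, was at 18.6, 14.7 and 14.7 CPM in mutant, against 15.2, 15.0 and 13.2 CPM in control libraries. Its log2 fold change of 0.14 ± 0.17 (SE) had a 95% interval from -0.26 to 0.54. Summed over the class, the mitochondrial genes were at 549 ± 31.4 CPM in mutant and 601 ± 57.3 CPM in control cells, and the cytosolic genes at 2532 ± 579 CPM in mutant and 3660 ± 194 CPM in control cells (SD, n = 3 each). Per kilobase of the principal transcript in GENCODE vM21 (GRCm38), control levels ran from 3.09 CPM for Wars2 to 27.8 CPM for Tars2 in the mitochondrial class and from 39.2 CPM for Farsa to 132 CPM for Nars in the cytosolic class. The lengths are on another build than the GRCm39 and mm39 named for the counts. Which annotation was counted is not given in the sources used here.

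Setting the enzymes of the same amino acid against each other within a library removes the scaling of that library. In 18 such combinations, 14 of them with 1 gene on either side and 4 that use the fused Eprs or the subunits of the phenylalanine enzyme, the log2 ratio of the cytosolic to the mitochondrial gene had a lower mean in mutant cells in 16 and a higher mean in 2. The median difference, mutant minus control, was -0.47. The ratios of mutant libraries all lay below those of the controls in 6 combinations (33.3% of the 18) and all above them in 2 (11.1%). How often ratios of other gene pairs separate in this way was not computed. Eprs and Fars2 each enter more than 1 combination, so the combinations are not independent. The exact two-sided permutation test has 0.1 as its smallest possible p with 3 samples in each group. It gave 0.1 for these 8 and, adjusted over the 18 combinations, 0.225 at the lowest, so none passed. The estimated median difference without mutant 1 was -0.21, from edgeR's log2 fold changes, with 14 of 18 lower.

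The log2 ratio of Yars to Yars2 was 1.43, 1.20 and 1.04 in mutant, against 2.82, 2.04 and 2.65 in control libraries, a difference of -1.28 and without overlap. The ratios of Farsb to Fars2, Nars to Nars2, Mars1 to Mars2, Tars to Tars2 and Wars to Wars2 were likewise separated, with differences from -0.74 to -0.21. The log2 ratio of Lars to Lars2 was 0.58, 1.18 and 1.34 in mutant, against 2.20, 1.31 and 2.23 in control libraries, and overlapped through control 2. In the arginine enzymes the ratio was higher in mutant libraries. The log2 ratio of Rars to Rars2 was 2.52, 2.45 and 2.54 in mutant, against 2.26, 2.34 and 2.07 in control libraries.

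**Figure D3:**
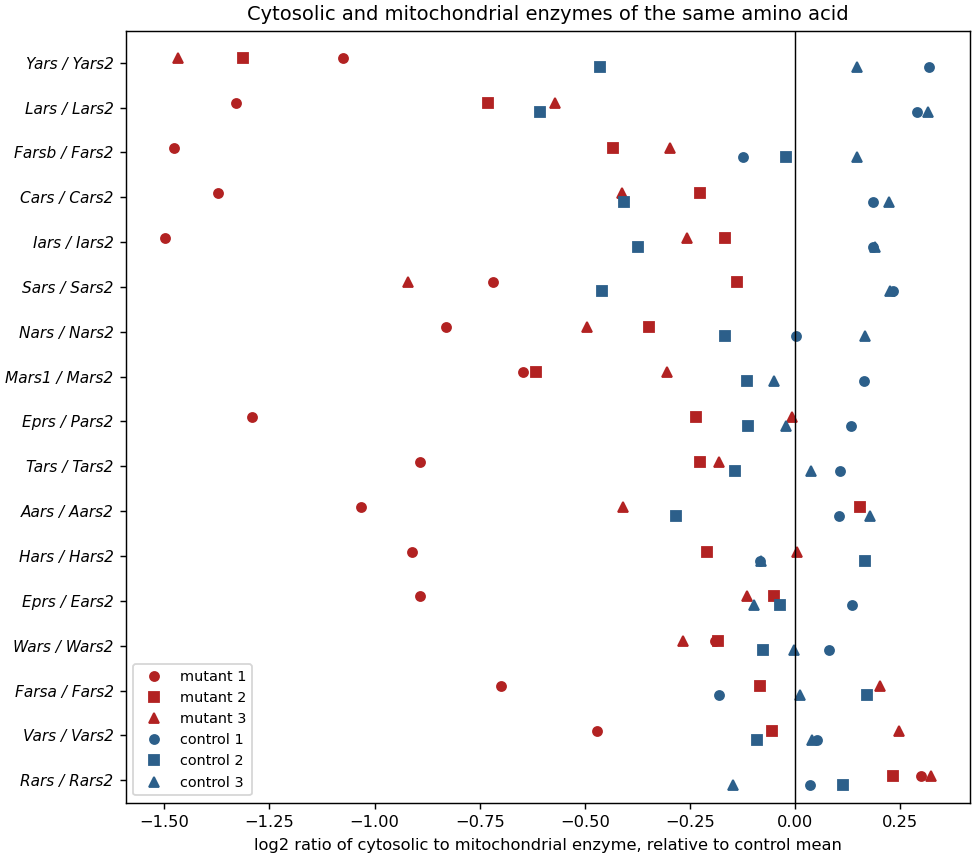
Log2 ratio of the cytosolic to the mitochondrial gene for the same amino acid in each library (horizontal axis, relative to the control mean of that combination), with 1 row of points for each of 17 combinations. Points are libraries; the mutant points lie to the left of the control points for Yars and Yars2 (difference -1.28) and to the right for Rars and Rars2 (difference 0.28).

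The class levels, taken as the mean log2 CPM of the members relative to the control mean, showed how much each library contributed. The cytosolic level was -0.94, -0.35 and -0.32 in mutant 1, 2 and 3, against 0.03, -0.05 and 0.02 in control 1, 2 and 3. Mutant 1 had the lowest value of the 6 libraries in 17 of 18 cytosolic genes, and 7 of 17 mitochondrial genes. The share of all genes with their lowest value in mutant 1 was not computed. The mitochondrial level was -0.21, -0.14 and -0.07 in mutant, against -0.06, 0.10 and -0.04 in control libraries, so that mutant 3 and control 1 nearly met. The difference between the classes was -0.73, -0.21 and -0.26 in mutant, against 0.09, -0.15 and 0.06 in control libraries, and control 2 lay close to the mutant libraries 2 and 3. Activation markers had a level of -0.58, -0.03 and 0.06 in mutant, against -0.06, 0.08 and -0.02 in control libraries, and naive markers 1.58, 0.18 and -0.44 in mutant, against -0.20, 0.16 and 0.04 in control libraries. Mutant 1 thus had the lowest synthetase and activation levels together with the highest naive level, and the part of these in the synthetase result was not tested. In a bulk sample, fewer cells of a kind and less RNA per cell cannot be told apart.

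The 12 cytosolic or dual genes that earlier work has reported as ATF4 targets (Aars, Cars, Eprs, Gars, Iars, Lars, Mars1, Nars, Sars, Tars, Wars and Yars) were described apart from the other 8. This grouping was written down after the counts of the members had been seen. All 12 had lower means in mutant cells, 10 without overlap, with a median log2 fold change of -0.64. Of the other 8, 7 had lower means and 3 lay below the controls without overlap, with a median of -0.28. Over all genes, 47.1% had lower means and 7.48% lay below without overlap. The level of the 12 was -1.17, -0.43 and -0.51 in mutant, against 0.10, -0.17 and 0.07 in control libraries, without overlap, and control 2 was the lowest control. The level of the other 8 was -0.60, -0.22 and -0.03 in mutant, against -0.09, 0.16 and -0.07 in control libraries, with control 2 the highest control and mutant 3 above control 1 and control 3.

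**Figure D4:**
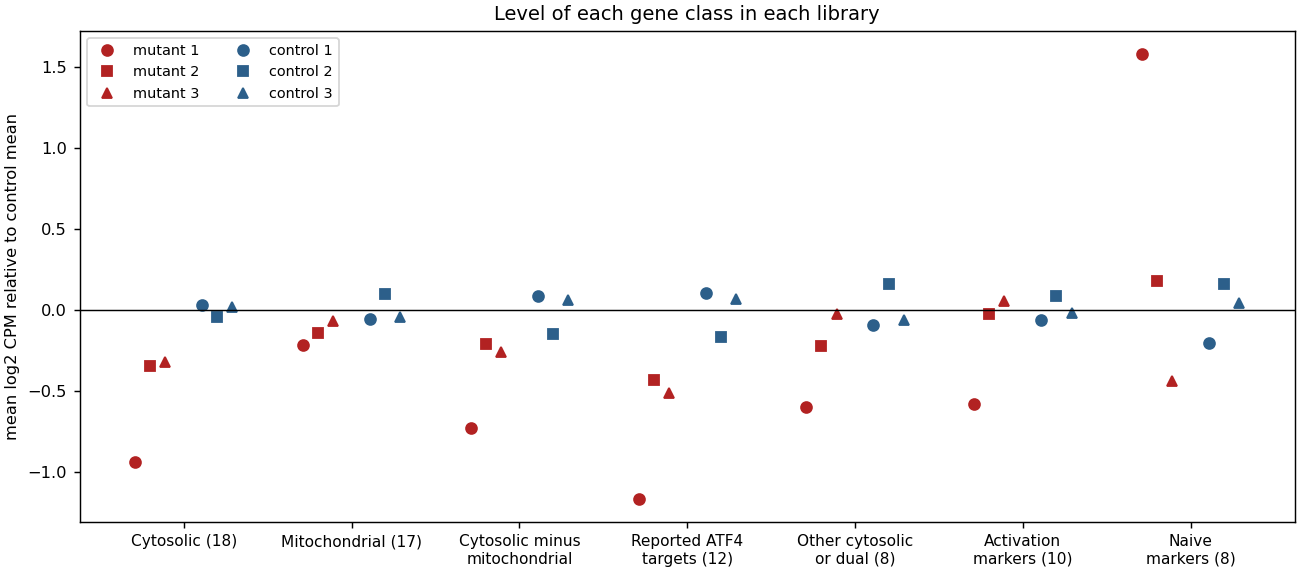
Mean log2 CPM of each gene class relative to the control mean (vertical axis) in each library, with the number of genes in brackets. Mutant 1 is lowest for the cytosolic genes (-0.94), the reported ATF4 targets (-1.17) and the activation markers (-0.58) and highest for the naive markers (1.58).

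Among 13 genes of amino acid stress signalling, 10 had a lower mean in mutant cells and 2 did not overlap, with a median log2 fold change of -0.18. None of the 13 was called by edgeR at an adjusted p of 0.05, and 2 had an unadjusted p under 0.05 with a lower mean. For this list and those that follow, the shares over all genes were 47.1% with a lower mean, 7.48% below and 6.6% above the controls without overlap, and 3.48% with an unadjusted p under 0.05 and a lower mean. Eif2ak4, the kinase that senses uncharged tRNA, was at 34.8, 37.6 and 45.1 CPM in mutant, against 56.7, 45.5 and 52.5 CPM in control libraries, without overlap by a narrow margin (log2 fold change -0.40 ± 0.16, SE). Asns, which makes asparagine and is a standard ATF4 target, was at 4.27, 49.1 and 14.4 CPM in mutant, against 125, 38.2 and 109 CPM in control libraries, with mutant 2 above control 2. Atf4 itself was at 148, 318 and 307 CPM in mutant, against 436, 341 and 445 CPM in control libraries, without overlap (log2 fold change -0.66 ± 0.29, SE). Atf4 was singled out after its values were seen.

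Of 10 accessory genes of charging, 8 had lower means in mutant cells, 3 lay below the controls without overlap (7.48% of all genes did) and 0 had an unadjusted p under 0.05 (3.48% of all genes, with a lower mean). Their median log2 fold change was -0.14. Sepsecs, which completes selenocysteine on its tRNA, was at 19.1, 25.9 and 24.5 CPM in mutant, against 27.7, 29.0 and 30.9 CPM in control libraries. Dtd2, which removes wrongly attached amino acids, was at 6.58, 7.28 and 6.57 CPM in mutant, against 9.12, 8.77 and 9.03 CPM in control libraries. Neither gene overlapped between the groups. Of 7 genes of tRNA export and delivery, 4 had lower means (median -0.12). Xpot, which exports tRNA from the nucleus, was at 122, 162 and 187 CPM in mutant, against 221, 195 and 210 CPM in control libraries, without overlap. Eef1a1, which brings charged tRNA to the ribosome, was at 10271, 7642 and 7135 CPM in mutant, against 6514, 7638 and 6828 CPM in control libraries, with overlap and mutant 1 the highest.

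Of 9 mitochondrial translation factors, 7 had lower means, 2 without overlap below (7.48% of all genes) and 1 without overlap above the controls (6.6% of all genes), and their median log2 fold change was -0.26. The release factor gene Mtrf1 was at 3.45, 4.84 and 5.52 CPM in mutant, against 6.62, 7.71 and 7.46 CPM in control libraries. The initiation factor gene Mtif2 was at 35.0, 35.8 and 35.6 CPM in mutant, against 41.9, 44.3 and 42.1 CPM in control libraries. Both lay below the controls without overlap. Of 19 genes of tRNA maturation, 13 had lower means and 3 lay below the controls without overlap (median -0.11). Among them the RNase P subunit gene Rpp40 was at 5.28, 7.96 and 9.45 CPM in mutant, against 10.7, 10.6 and 13.0 CPM in control libraries, without overlap. Of 14 genes of RNA polymerase III, which transcribes tRNA genes, 9 had lower means, with 1 below and 2 above the controls without overlap (median -0.06). Polr3g was at 17.0, 23.2 and 25.8 CPM in mutant, against 35.4, 31.0 and 33.8 CPM in control libraries, without overlap. Polr3c was at 73.2, 59.9 and 62.7 CPM in mutant, against 73.0, 85.9 and 74.0 CPM in control libraries, with mutant 1 above control 1. No gene of these lists passed edgeR's adjusted p, the lowest being 0.618 for Polr3g.

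Tarsl2, a second threonine enzyme gene whose symbol the rule does not take, was at 12.3, 14.0 and 13.8 CPM in mutant, against 19.1, 23.9 and 20.2 CPM in control libraries, without overlap. Its log2 fold change was -0.66 ± 0.16 (SE), with an adjusted edgeR p of 0.598, and with it the cytosolic median was -0.49.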

How the data were processed

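RNA was sequenced from 3 mutant and 3 control samples, from libraries made with ribosomal RNA depletion from 1.0 µg of total RNA, per the labels' protocols. The authors deposited 1 table of estimated counts per gene, not normalized, with 26469 rows; 63.7% of its values (42.5% of the members' values) lie within 0.01 of a whole number, so reads were in part shared among genes or transcripts. The submitters' processing notes name STAR 2.7.8a, Partek and the builds GRCm39 and mm39; which annotation was counted, and whether by strand, is not given in the sources used here, and overlapping genes cannot be told apart. Counts were rounded, filtered with filterByExpr (minimum count 10, 18323 genes kept), scaled by TMM and tested, mutant minus control, in edgeR 4.0.16 (R 4.3.3) without covariates; p-values are two-sided and adjusted over all genes kept, with a threshold of 0.05. SE was obtained as |log2 fold change| over the root of the F statistic, intervals are 95%, and log2 CPM uses a prior count of 2. DESeq2 1.42.0 and limma-voom 3.58.1 were alternatives. Replicates of a group all differed by more than counting noise (chi-square over its degrees of freedom, 18.6 to 176). The members, classes, lists and tests were chosen with earlier results of these data known. Named with values in every library were the 6 members with the smallest p, their counterparts, the 2 mitochondrial members with the smallest p, the dual genes, the scaffolds, the extremes of each class and up to 2 genes of each related list; values of other members are further description. Some items that this choice takes are not reported here. Tarsl2 had been planned as a cytosolic gene but is not taken by the symbol rule and was left out. Of the NK markers 1 has no row under its symbol and was not used here.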

Additional observations from a re-analysis of the deposited data

How the results depend on the processing

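No member passed edgeR's adjusted p of 0.05 under any scaling, filter, replicate block or omission of 1 library that was run. In each of these refits 0 of all genes tested passed too, so the absence of calls is not particular to the members. No member passed at 0.01, or in limma-voom, where 0% of all genes were called. DESeq2 called 1 member, Yars, and 0.64% of the genes to which it gave an adjusted p. The median of all genes moved by less than 0.1 under every scaling. The cytosolic median kept its sign throughout, at -0.62 to -0.28 when single libraries were left out, and the mitochondrial median ranged from -0.17 to -0.0324. The difference between the classes ranged from -0.49 to -0.16, the last without mutant 1; the cause was not tested. Members with an unadjusted p under 0.05 and a lower mean numbered 6 to 16 with 1 library left out (1.15% to 5.21% of all genes). Members without overlap in either direction numbered 18 to 27 in the same refits (18.3% to 32.1% of all genes) and 16 under upper quartile scaling (14.4%), 15 of these below and 1 above the controls. Among 19 named genes the sign changed in 12 of 228 gene values from the refits, for 4 genes. The log2 fold change of Lars2 was 0.0254 under upper quartile scaling and 0.0177 with the filter of 1 CPM in 3 samples, and that of Sars2 0.0136 and 0.00871. With 1 library left out Lars2 ranged from -0.13 to 0.20, Sars2 from -0.19 to 0.0856, Yars2 from -0.0950 to 0.33 and Qars from -0.0218 to 0.18. With the replicate number as a block the cytosolic median was -0.51, the mitochondrial median -0.09, their difference -0.42, and 12 members had an unadjusted p under 0.05 and a lower mean (2.7% of all genes). Over the genes tested, deviations from the group mean correlated at -0.05, -0.07 and -0.03 between same-numbered libraries. These values do not settle whether same-numbered samples share more than a number, and the labels do not say. Exact tests of the ratios were not rerun without single libraries.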
